A study of Mus musculus with 12 samples.

Results

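Cytotoxic-lineage T cells that carry CD4 (FlipFlop CD4 T cells) were compared with cytotoxic-lineage T cells that carry CD8 (B6 CD8 T cells), in 3 libraries each of the 12 RNA-sequencing libraries made. All cells were electronically sorted from lymph nodes (LN) of female mice, with FlipFlop mice labelled as 14 weeks old and B6 (C57BL/6) mice as 10 weeks old, so strain and age cannot be told apart. FlipFlop mice carry on both copies of chromosome 6 a crossover allele in which the Cd8a locus encodes CD4 (the 4in8 alteration, made in a 129R1 embryonic stem cell line) and the Cd4 locus encodes CD8αβ.1 (the 8in4 alteration, made in B6 embryonic stem cells). B6 mice carry neither alteration. The remaining 6 libraries hold the helper-lineage pair, FlipFlop CD8 and B6 CD4 T cells from the same strains and ages, and they serve here for a second FlipFlop to B6 difference, in the estimate of the spread and, for B6 CD4, as reference levels. Of the 12809 genes in the table, 10922 reached 1 CPM (counts scaled to library size and TMM factors) in at least 3 of the 6 libraries and were tested, and 1887 did not.

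CD4 and CD8 are coreceptors that bind MHC class II and class I molecules, respectively, together with the T cell antigen receptor (TCR). In ordinary mice the coreceptor and the lineage go together. CD4 T cells become helper cells under ThPOK (encoded by Zbtb7b) and CD8 T cells become killer cells under Runx3, which represses Cd4 and ThPOK. The comparison thus holds lineage fixed by the design, while the surface coreceptor, and with it the class of MHC recognized, differs between the groups. Strain, altered loci and age differ between the same groups, so their parts and that of the coreceptor cannot be told apart.

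The libraries held 26600000 to 32700000 reads on the listed genes. Between libraries of one group the root mean square difference of log2(CPM + 0.5) was 0.224 to 0.303, and between groups it was 0.452 to 0.525, so no library stood apart from its group. The labels do not say whether the 3 libraries of a group came from separate animals, and p-values measure only the spread between these libraries. T cell markers (Cd3e, Cd3d, Cd3g, Trac, Trbc1, Trbc2 and Lck) summed to 4811 to 5336 CPM in FlipFlop CD4 and 5010.3 to 5108 CPM in B6 CD8 T cells, and 0 of the 7 passed the test. The 16 B cell markers summed to 682 to 803 and 719 to 875 CPM, and 0 of the 15 tested passed, with 14 below 0 and a median of -0.40. The 1 tested marker of gamma-delta T cells and the 1 of NKT and MAIT cells did not pass, and Pecam1, the 1 tested of stromal and endothelial cells, was called higher (0.42).

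By limma with Benjamini-Hochberg adjustment, 900 of the 10922 genes (8.24%) were called at an adjusted p under 0.05, with 469 (4.29%) higher and 431 (3.95%) lower in FlipFlop CD4 T cells relative to B6 CD8. Most called differences were small. Their median size was 0.63 on the log2 scale and 212 of them reached 2-fold. At an unadjusted p under 0.0001 and more than 5-fold, 55 genes (0.504%) differed, 33 higher and 22 lower. The 95% interval of the difference lay wholly within 2-fold for 10159 genes (93%), and the median difference over all genes was -0.0024. Protein-coding genes gave 403 rises and 393 falls among 10089 tested (7.89% called), and processed pseudogenes, which are copies of messenger RNAs inserted into the genome, gave 24 rises and 3 falls among 273 (9.89% called). Among the 55 genes past the stricter limits, 32 were protein-coding (13 higher, 19 lower), 16 were processed pseudogenes, all 16 higher, and the rest were 5 other RNAs, 1 other pseudogene (H2-T10) and 1 TCR segment (Trbv12-1). Of the 33 rises 21, among them 12 of the 16 processed pseudogenes, had no B6 CD8 library at 1 CPM, and 10 of the 22 falls had no FlipFlop CD4 library at 1 CPM, so that these passed the limit on low values through 1 group and their direction was fixed by it. The 5 RNAs, named after their values were seen, were Gas5, a host gene of small nucleolar RNAs (-2.76), Gm44174 (-2.59), A930015D03Rik (2.97), AC165951.1 (3.46) and Gm7292 (4.02). The number of called genes depended on single libraries: it was 499 without B6 CD8 replicate 2, 543 without FlipFlop CD4 replicate 2, 563 without B6 CD8 replicate 3, 582 without FlipFlop CD4 replicate 3, and 1545 without B6 CD4 replicate 1, which enters the fit only through the estimate of the spread.

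**Figure D1:**
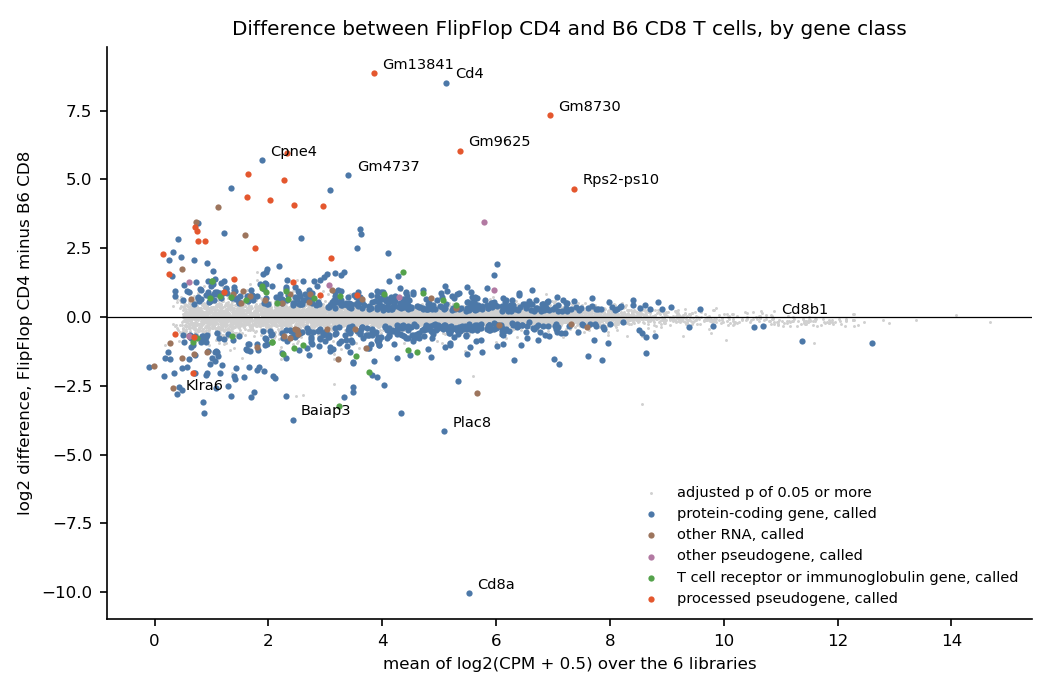
Log2 difference (FlipFlop CD4 minus B6 CD8, vertical axis) against the mean of log2(CPM + 0.5) over the 6 libraries (horizontal axis), 1 point per tested gene, coloured by class where called. Most of the 10922 genes lie near 0, Cd4 and Cd8a lie at 8.52 and -10.03, and processed pseudogenes in orange make up 16 of the 33 genes more than 5-fold higher.

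The coreceptor genes showed the exchange itself. The cells were sorted as CD4 or CD8 T cells, so the differences of Cd4 and Cd8a follow from the sort and their p-values are no support. Coordinates are those of the annotated genes, whereas in FlipFlop mice the Cd8a locus encodes CD4. Cd4 (chr6:124864692-124888221) was at 719, 652 and 637 CPM in FlipFlop CD4 against 2.4, 0.6 and 1.39 CPM in B6 CD8 (log2 difference 8.52 ± 0.24, adjusted p = 5.7e-10). Cd8a (chr6:71373427-71379173), which encodes the α chain, was at 0.854, 0.942 and 0.967 CPM in FlipFlop CD4 against 1496, 1499.6 and 1472 CPM in B6 CD8 (-10.03 ± 0.21, adjusted p = 2e-11). These groups stood far apart in every library. Cd8b1, which encodes the β chain, was at 1962, 1887 and 1639 CPM in FlipFlop CD4 against 1893, 1924 and 1839 CPM in B6 CD8, and its difference of -0.05 ± 0.11 did not pass (adjusted p = 0.84, 95% interval -0.29 to 0.19).

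Of the 6 genes chosen for RT–qPCR in the study, 1 passed the test with the spread taken over all 12 libraries. Runx3, the factor of the cytotoxic lineage, was at 129, 139.6 and 145 CPM in FlipFlop CD4 against 124, 104 and 105 CPM in B6 CD8 (0.31 ± 0.11, adjusted p = 0.118), and Prf1, which encodes the pore-forming protein perforin, was at 204, 229 and 206 CPM in FlipFlop CD4 against 149, 160.1 and 162 CPM in B6 CD8 (0.44 ± 0.15, adjusted p = 0.0904). Eomes, a T-box factor of killer and memory cells, was at 42.2, 60.7 and 91.8 CPM in FlipFlop CD4 against 63.7, 72.2 and 71.4 CPM in B6 CD8 (-0.16 ± 0.32, adjusted p = 0.809). Zbtb7b was under 3 CPM in both groups, at 1.87, 2.21 and 2.79 CPM in FlipFlop CD4 against 1.5, 1.16 and 1.99 CPM in B6 CD8, against a mean of 196 CPM in B6 CD4 T cells, and its difference of 0.45 ± 0.14 did not pass (adjusted p = 0.0721). Gata3, a helper-lineage factor, was at 26, 29.9 and 28.1 CPM in FlipFlop CD4 against 25.9, 24.4 and 21.8 CPM in B6 CD8 (0.22 ± 0.08, adjusted p = 0.143). Cd40lg, the helper ligand for CD40 on B cells, was called higher, at 2.82, 3.59 and 2.38 CPM in FlipFlop CD4 against 1.2, 0.52 and 0.729 CPM in B6 CD8 (1.40 ± 0.17, adjusted p = 0.00022). Its FlipFlop CD4 mean was 3.91% of the B6 CD4 mean.

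Among the 10 helper-lineage genes, 5 were called higher and 0 lower in FlipFlop CD4 T cells, with a median difference of 0.44, against 4.29% of all genes called higher. Besides Cd40lg these were Ctla4, an inhibitory receptor (12.7, 9.6 and 12.3 CPM in FlipFlop CD4 against 3.93, 4 and 4.74 CPM in B6 CD8, 1.34 ± 0.12), Tnfrsf4, which encodes OX40 (2.33, 1.7 and 1.97 CPM in FlipFlop CD4 against 0.749, 0.72 and 0.795 CPM in B6 CD8, 0.99 ± 0.11), Myb (0.96 ± 0.19) and the costimulatory receptor Icos (0.42 ± 0.08). The FlipFlop CD4 libraries lay above all B6 CD8 libraries for each of the 5, and 32.8% of all tested genes did not overlap. Tnfrsf4 reached the limit on low values only through FlipFlop CD4, so that it had to be higher there. Relative to the B6 CD4 mean, the FlipFlop CD4 level was 3.54% for Tnfrsf4, 23.3% for Ctla4, 43.8% for Icos and 180.4% for Myb. Cd28, Tox and Il6ra, with differences of 0.09, 0.10 and 0.17, did not pass.

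Some markers of regulatory T cells were called higher too, with 8 of the 11 tested above 0 and 3 below. Of 11 tested, 5 were called higher and 0 lower: Foxp3, Nrp1, Ikzf4, and Ctla4 and Tnfrsf4, which both lists hold, against 4.29% of all genes called higher. Tnfrsf4 passed the limit on low values only through FlipFlop CD4, as stated above. Foxp3, the factor of regulatory T cells, was at 2.3, 2.07 and 1.6 CPM in FlipFlop CD4 against 0.974, 1.4 and 0.53 CPM in B6 CD8 (0.80 ± 0.20, adjusted p = 0.0266) and its FlipFlop CD4 mean was 1.84% of the B6 CD4 mean. Its call was lost when the 6 libraries were fitted alone (adjusted p = 0.0786) and without 4 single libraries (B6 CD8 replicates 1 and 3, FlipFlop CD4 replicates 1 and 2, adjusted p up to 0.0885). The whole list of 12 summed to 116 to 132 CPM in FlipFlop CD4, 108 to 114 CPM in B6 CD8 and 641 to 773 CPM in B6 CD4 T cells. Of the 5 tested markers of follicular helper T cells, Icos and Pdcd1 were called higher, with Pdcd1 at 5.22, 2.9 and 4.42 CPM in FlipFlop CD4 against 1.16, 2 and 2.39 CPM in B6 CD8, a call lost without 3 of the 6 libraries (B6 CD8 replicate 1, FlipFlop CD4 replicates 1 and 3, adjusted p up to 0.0646). The part of such cells in the helper-lineage result was not tested. In bulk samples, more cells of a type and more RNA per cell cannot be told apart, here and below.

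Most cytotoxic-lineage factors did not pass, and for effector genes the calls depended on which libraries gave the spread. Of 11 factors tested, Runx1 was called higher (57.8, 61.9 and 73.6 CPM in FlipFlop CD4 against 37.9, 39.7 and 39.6 CPM in B6 CD8, 0.71 ± 0.15) and Tbx21 and Hopx lower. Tbx21, which encodes T-bet, was at 10.4, 6.09 and 7.4 CPM in FlipFlop CD4 against 24.2, 24.3 and 25.2 CPM in B6 CD8 (-1.60 ± 0.40, adjusted p = 0.0281), and Hopx was at 37.1, 34 and 33.5 CPM in FlipFlop CD4 against 51.1, 61.5 and 54.3 CPM in B6 CD8 (-0.66 ± 0.10, adjusted p = 0.00187). Of 24 effector genes, 0 were called higher and 3 lower, a share of 12.5% against 8.24% of all genes, with a median of -0.45. The 3 were the chemokine gene Xcl1 (-0.95), Ctsc, which encodes a protease that activates granzymes (-0.42), and Fasl, a ligand that triggers death of the target cell (-0.68). Other effector genes had larger differences that did not pass. Gzmm, a granzyme, was at 1.94, 1.09 and 1.75 CPM in FlipFlop CD4 against 15.2, 17.5 and 11.9 CPM in B6 CD8 (-2.88 ± 0.85, adjusted p = 0.0595), and Ccl5 was at 37.2, 18.5 and 16.8 CPM in FlipFlop CD4 against 82.2, 106 and 119 CPM in B6 CD8 (-2.14 ± 0.68, adjusted p = 0.0794). The 6 libraries of both genes did not overlap, which held for 32.8% of all tested genes. Nkg7, a granule protein, was at 296, 297 and 293 CPM in FlipFlop CD4 against 469.6, 509 and 461 CPM in B6 CD8 (-0.70 ± 0.56, adjusted p = 0.491). The standard errors of these genes are large beside the scatter of their 6 libraries because the spread was taken over all 12. With the 6 libraries fitted alone, 8 of the 24 effector genes were called lower and 1 higher, with adjusted p = 7.1e-05 for Gzmm, 0.0003 for Nkg7, 0.00256 for Ccl5, 0.00193 for the protease gene Ctsw (-0.56), 0.00957 for Ccl4 (-1.11) and 0.0226 for Slamf7 (-0.62), all lower, and 0.00584 for Prf1, higher. Fasl was then not called (0.0542). In the fit of 12 libraries the interval of 14 of the 24 effector genes lay within 2-fold. Without single libraries of the 6, calls were lost for Tbx21 (5, 0.111), Fasl (4, 0.117), Xcl1 (4, 0.0925) and Runx1 (1, 0.0592), where parentheses give the number of libraries whose omission ended the call and the highest adjusted p.

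Killer cell lectin-like receptors are used by natural killer (NK) cells and some CD8 memory T cells to sense class I molecules. Of the 8 members tested, 7 were called lower and 0 higher, against 3.95% of all genes called lower. The other 18 of the 26 were not tested because they were outside the table or did not reach the limit on low values, and 5 of the 8 passed with no FlipFlop CD4 library at 1 CPM, so that these 5 (Klra3, Klra6, Klra7, Klrc1 and Klre1) had to be lower and their number is no support. Of the remaining tested members, Klrk1 and Klrd1 were called lower in FlipFlop CD4 T cells and Klrb1c was not called. Klra6, a Ly49 receptor, was at 2.28, 2.52 and 4.44 CPM in B6 CD8 against 0, 0 and 0 CPM in FlipFlop CD4, or at least 29-fold lower against the floor of 3 reads per library (adjusted p = 6.3e-06). Klra7 was at 1.72, 2.24 and 6.45 CPM in B6 CD8 against 0.0985, 0.0362 and 0.0372 CPM in FlipFlop CD4 (over the groups 5 reads against 297, a ratio of 61.6 with an exact 95% counting interval of 26.1 to 191), and Klre1 at 2.06, 2.28 and 4.17 CPM in B6 CD8 against 0.0985, 0.0362 and 0.0372 CPM in FlipFlop CD4 (5 reads against 238, a ratio of 49.4 with an exact 95% counting interval of 20.9 to 153). These 3 were at or under the floor in every FlipFlop CD4 library. Klrc1, which encodes NKG2A, was at 3.74, 6.16 and 10.9 CPM in B6 CD8 against 0.427, 0.326 and 0.558 CPM in FlipFlop CD4 (-2.88 ± 0.44), and Klrk1, which encodes NKG2D, at 2.88, 4.36 and 7.85 CPM in B6 CD8 against 0.854, 1.05 and 0.855 CPM in FlipFlop CD4 (-1.86 ± 0.30). Klrd1, which encodes CD94, the partner of NKG2A, was more abundant in both groups, at 84.6, 99 and 107 CPM in B6 CD8 against 57.2, 45.8 and 44.8 CPM in FlipFlop CD4 (-0.97 ± 0.16). Klrb1c did not pass (-0.16). Some of these receptor genes are near-identical copies, so reads could be split between them.

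Markers of other cells are given beside these receptors. The 7 NK cell markers summed to 6.96 to 15.6 CPM in B6 CD8 and 3.81 to 5.78 CPM in FlipFlop CD4 T cells, with 5 of the 7 in the table, and Klrb1c, Klre1, Klra8 and Gzma are also members of the lists above. The 11 myeloid markers summed to 9.12 to 22.8 and 7.06 to 9.6 CPM, with 6 in the table and 0 called. The 6 dendritic cell markers summed to 3.46 to 5.29 and 1.06 to 1.97 CPM, and Itgax alone was tested and called lower (-1.60), a call lost without 5 of the 6 libraries (adjusted p up to 0.141) and with a pseudocount of 0.1. The 5 red blood cell markers summed to 15.9 to 25.2 and 6.67 to 14.2 CPM, with Hbb-bs called lower (-0.98), a call lost without 4 of the 6 libraries (adjusted p up to 0.182) and under 6 other alternatives. Their part in the result was not tested.

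Among memory T cell genes, falls outnumbered rises. Of 30 tested, 9 were called lower and 1 higher (33.3% called, against 8.24% of all genes), with a median of -0.51. Plac8, whose transcript marks effector and memory CD8 T cells, had the largest fall, at 117, 142 and 175 CPM in B6 CD8 against 11.7, 4.49 and 8.03 CPM in FlipFlop CD4 (-4.15 ± 0.40, adjusted p = 3.5e-05). The interleukin-18 receptor chain Il18rap was at 30.1, 30.9 and 33.8 CPM in B6 CD8 against 6.47, 4.86 and 8.66 CPM in FlipFlop CD4 (-2.20 ± 0.44), and the chemokine receptor Cxcr6 at 246, 252 and 245 CPM in B6 CD8 against 85.1, 72.3 and 71.2 CPM in FlipFlop CD4 (-1.70 ± 0.24). Il2rb, the β chain through which memory CD8 T cells receive IL-15, was at 547, 585 and 562 CPM in B6 CD8 against 353, 339.9 and 352 CPM in FlipFlop CD4 (-0.70 ± 0.09). Every FlipFlop CD4 library lay below every B6 CD8 library for these 4 genes, beside 32.8% of all genes without overlap. Ccr2 (-1.97), Anxa2 (-1.13), Ly6c2 (-1.30), Vim (-0.56) and Tbx21 were the other falls. S100a4 was called higher (adjusted p = 0.0169), from 3.6, 2.04 and 3.25 to 8.87, 6.49 and 5.17 CPM. The adhesion receptor Cd44, by which memory cells are commonly gated, did not pass (-0.28, 95% interval -0.53 to -0.02). With the 6 libraries fitted alone, 14 were called lower and 2 higher, the falls added including Ccl5, Gzmm, Lgals1 (-0.80, 0.034) and Il18r1 (-0.43, 0.0304), with the adjusted p second. With 1 library left out, 6 to 8 of the list were called lower, and calls were lost for Ly6c2 (6, 0.156), Tbx21 (5, 0.111), Vim (3, 0.0887) and S100a4 (3, 0.0822), numbers as above.

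Naive T cell genes gave 1 rise and 1 fall among 18, a share of 11.1% against 8.24% of all genes, and 17 of the 18 intervals lay within 2-fold, as did 93% of all. Lef1, a factor of naive T cells, was at 522, 557 and 521 CPM in FlipFlop CD4 against 440.1, 443 and 427 CPM in B6 CD8 (0.29 ± 0.06). Ccr7 and S1pr1, which guide entry to and exit from LN, differed by 0.16 and 0.01 and did not pass. Without single libraries, the call was lost for Lef1 (3, 0.0798). With the 6 libraries fitted alone, 3 were called higher (Lef1, Bach2 and Foxo1) and 2 lower, with Il7r added.

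Some genes that report TCR signals rose. Of 13 tested, 5 were called higher and 0 lower, with a median of 0.32, against 4.29% of all genes called higher. Nr4a1, an orphan receptor gene that responds early to TCR engagement, was at 31.8, 29.3 and 32.6 CPM in FlipFlop CD4 against 17.9, 15.1 and 16.4 CPM in B6 CD8 (0.90 ± 0.11, adjusted p = 0.00018), and Nr4a3 was at 22.9, 25.5 and 28.5 CPM in FlipFlop CD4 against 15.4, 15.6 and 16.7 CPM in B6 CD8 (0.67 ± 0.09). The others were Nfkbid (0.67), Irf4 (0.56) and Egr2 (0.43). In each case the 3 FlipFlop CD4 libraries were above the 3 B6 CD8 libraries, and 32.8% of all genes did not overlap. Cd5, an inhibitory surface protein whose level is set by TCR signals in the thymus, was at 214, 215 and 223 CPM in FlipFlop CD4 against 228, 213 and 201 CPM in B6 CD8, a difference of 0.02 (95% interval -0.15 to 0.20), and Cd69 differed by 0.04. Early response genes that respond to cell handling were listed apart, and of 10 tested Dusp1 was called higher (0.62) with a list median of -0.01. The TCR complex and its proximal kinases gave 0 calls among 14 and a median of 0.04, with all 14 intervals within 2-fold, beside 8.24% of all genes called and 93% within 2-fold. For example, Lck, the kinase that both coreceptors carry, differed by 0.11 (95% interval -0.05 to 0.27) and Zap70 by -0.07. With 1 library left out, 3 to 5 of the TCR reporter genes were called, and calls were lost for Irf4 (4, 0.139), Egr2 (4, 0.118) and Dusp1 (4, 0.106). With the 6 libraries fitted alone, Egr2 was not called (adjusted p = 0.0575) and Egr3 was called higher (0.40, adjusted p = 0.0076).

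**Figure D2:**
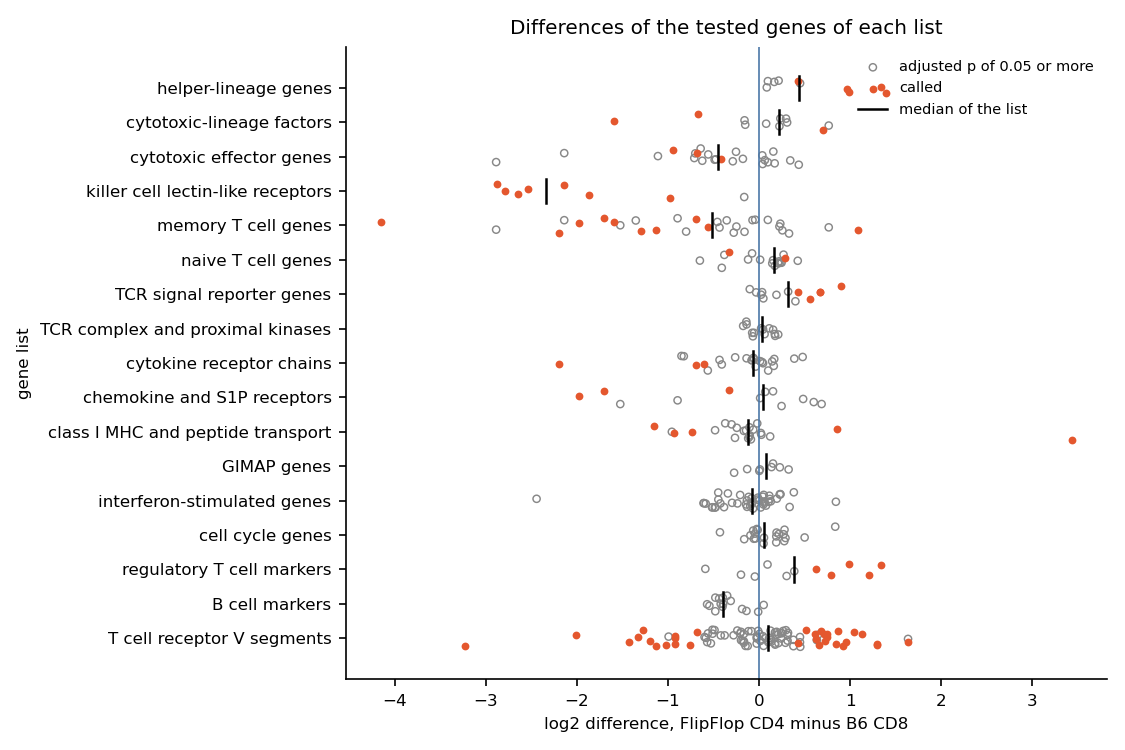
Log2 difference (FlipFlop CD4 minus B6 CD8, horizontal axis) of the tested genes of 17 lists (vertical axis), with called genes filled, other genes open and the median of each list as a black line, points spread vertically for legibility. Memory T cell genes have a median of -0.51, helper-lineage genes 0.44 and the TCR complex list 0.04, and of the 8 tested killer cell lectin-like receptors, all below 0, 5 had to be because of the limit on low values.

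Cytokine receptor chains gave 0 rises and 3 falls among 24 (Il18rap, Il2rb and Il10ra), or 5 falls with Il7r and Il18r1 when the 6 libraries were fitted alone, and 21 of the 24 intervals lay within 2-fold (all genes, 8.24% called and 93% within 2-fold). Chemokine and sphingosine-1-phosphate receptors gave 0 rises and 3 falls among 12 (Cxcr6, Ccr2 and S1pr4). The calls of S1pr4 and Il10ra were lost without single libraries (S1pr4 (6, 0.0909) and Il10ra (2, 0.0581)). GIMAP genes gave 0 calls among 8, and cell cycle genes 0 among 21 by limma. Mki67, a marker of dividing cells, was at 12, 10.1 and 9.67 CPM in FlipFlop CD4 against 7.64, 4.16 and 5.73 CPM in B6 CD8 (0.84 ± 0.27, adjusted p = 0.082), and was called with the 6 libraries fitted alone (adjusted p = 0.0324), as was Pcna (-0.43, 0.0449). None of the 46 interferon-stimulated genes was called, although single genes spread widely: Oasl2 was at 5.09, 0.181 and 14.1 CPM in FlipFlop CD4 against 15.4, 14.2 and 37.5 CPM in B6 CD8 (adjusted p = 0.217). Of the 87 ribosomal protein genes, Rps2 and Rplp0 were called lower, and both are parents of the pseudogenes described below. The list median was -0.15, with 85 of the 87 below 0, against 5524 of the 10922 tested genes. In the helper pair 81 were called lower with a median of -0.53, against 14.7% of all genes called lower there.

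Class I MHC and peptide transport genes gave 2 rises and 3 falls among 23, against 8.24% of all genes called. H2-T10, which GENCODE annotates as a pseudogene of the class I T region, was at 201, 163 and 182 CPM in FlipFlop CD4 against 16.9, 14.9 and 17 CPM in B6 CD8 (3.44 ± 0.10, adjusted p = 7.1e-10), and H2-T24 rose by 0.85. H2-M3, which presents formylated peptides, was at 45, 48 and 56.7 CPM in B6 CD8 against 27.2, 25 and 25.2 CPM in FlipFlop CD4 (-0.93 ± 0.10). H2-T23, which encodes Qa-1, the ligand of NKG2A, was at 472, 473 and 608 CPM in B6 CD8 against 329, 308 and 293 CPM in FlipFlop CD4 (-0.73 ± 0.12), and H2-Q10 fell by 1.15. The groups did not overlap for any of the 5, which held for 32.8% of all genes. The classical genes H2-K1 and H2-D1 differed by -0.10 and -0.12 and did not pass. B2m, the light chain of class I molecules, was at 3873, 1618 and 1685 CPM in FlipFlop CD4 against 3801, 4147 and 4886 CPM in B6 CD8, with 1 FlipFlop CD4 library at the level of B6 CD8 and 2 well below it (-0.96 ± 0.36, adjusted p = 0.128). The call of H2-T24 was lost without 4 of the 6 libraries (adjusted p up to 0.125). Class I genes resemble each other closely, and reads could be split between them.

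TCR V segments, the gene pieces that form the antigen-binding part of the receptor, were called more often than the other gene classes counted. Of 95 tested, 19 were higher and 13 lower (33.7% against 8.24% of all genes). This class and the segments named here were chosen after their values were seen. The β-chain segments Trbv12-1 and Trbv12-2 were lower, at 1.94, 2.25 and 3.83 CPM in FlipFlop CD4 against 27.6, 28.7 and 28.8 CPM in B6 CD8 (-3.23 ± 0.17) and at 6.01, 5.84 and 7.18 CPM in FlipFlop CD4 against 24.3, 28.7 and 28.1 CPM in B6 CD8 (-2.01 ± 0.11), respectively. Trbv29 was lower too, at 17.5, 12.5 and 15.9 CPM in FlipFlop CD4 against 37.3, 37.5 and 37 CPM in B6 CD8 (-1.27 ± 0.15). Trbv31 was higher, at 38.7, 33.8 and 35.5 CPM in FlipFlop CD4 against 10.8, 10.6 and 12.4 CPM in B6 CD8 (1.64 ± 0.09), as was Trbv5, at 35.9, 37.5 and 31.6 CPM in FlipFlop CD4 against 17.2, 18.2 and 21.6 CPM in B6 CD8 (0.87 ± 0.10). Replicates of a group differed little and the groups stood apart. Among called α-chain segments the differences ran from -1.33 for Trav16 to 1.29 for Trav4n-4, whose values equal those of Trav4d-4, so that reads of these near-identical copies could not be assigned. In the helper-lineage pair 16 of the 32 called segments were called in the opposite direction and 1, Trbv14, in the same one. The difference between both pairs was itself called for 28 of the 32, against 4.32% of all tested genes.

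The 10 largest falls and 10 largest rises among protein-coding genes were taken from 557 genes (282 higher, 275 lower) that were called, averaged at least 10 CPM in one group and did not overlap between groups. After Cd8a and Plac8, the falls were led by Baiap3 (chr17:25242659-25256364), a relative of the Munc13 proteins of vesicle release, at 19.2, 18.4 and 19.6 CPM in B6 CD8 against 0.788, 0.942 and 1.23 CPM in FlipFlop CD4 (-3.73 ± 0.21). Arsb (chr13:93771630-93943016), which encodes the lysosomal enzyme arylsulfatase B, was at 65.3, 78.9 and 58.8 CPM in B6 CD8 against 5.71, 6.23 and 4.57 CPM in FlipFlop CD4 (-3.50 ± 0.19). Sytl3 (chr17:6659093-6738044), a synaptotagmin-like protein that binds the granule transport factor Rab27a, was at 29.7, 25.4 and 25.5 CPM in B6 CD8 against 3.41, 3.19 and 2.91 CPM in FlipFlop CD4 (-2.90 ± 0.46). In these 3 genes the groups were separated by several-fold gaps. The remaining falls were Zbtb8a (-2.86), the protein kinase C substrate Plek (-2.74), the semaphorin receptor Nrp2 (-2.55), the coronin Coro2a (-2.49) and the protease-activated receptor F2rl1 (-2.34). Coro2a spread most among FlipFlop CD4 libraries, at 13.1, 7.36 and 2.53 CPM.

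Among the rises after Cd4, Cpne4 (chr9:104547286-105034544), a copine that binds phospholipids, was at 28.5, 19.6 and 31.5 CPM in FlipFlop CD4 against 0, 0.04 and 0 CPM in B6 CD8 (1 read against 2255, a ratio of 2173 with an exact 95% counting interval of 389.7 to 85885; log2 difference 5.69 ± 0.17). Col6a4 (chr9:105989454-106096783), a collagen VI chain, was at 14.7, 8.88 and 14.4 CPM in FlipFlop CD4 against 0, 0 and 0 CPM in B6 CD8, at least 115-fold higher against the floor of 3 reads per library. St8sia6 (chr2:13651021-13794064), a sialyltransferase, was at 26.7, 49.9 and 36 CPM in FlipFlop CD4 against 3.11, 3.68 and 3.78 CPM in B6 CD8 (3.20 ± 0.22). Cpne4 and Col6a4 were close to absent in B6 CD8 T cells, whereas St8sia6 was present in all 6 libraries. The others were the phospholipid flippase gene Atp9a (3.02), the imprinted splicing gene Snrpn (2.88), the inositol phosphatase gene Synj2 (2.50), Tagap1 (2.32), and Gm4737 and Hmga1b, which have 1 exon and resemble multi-exon genes.

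**Figure D3:**
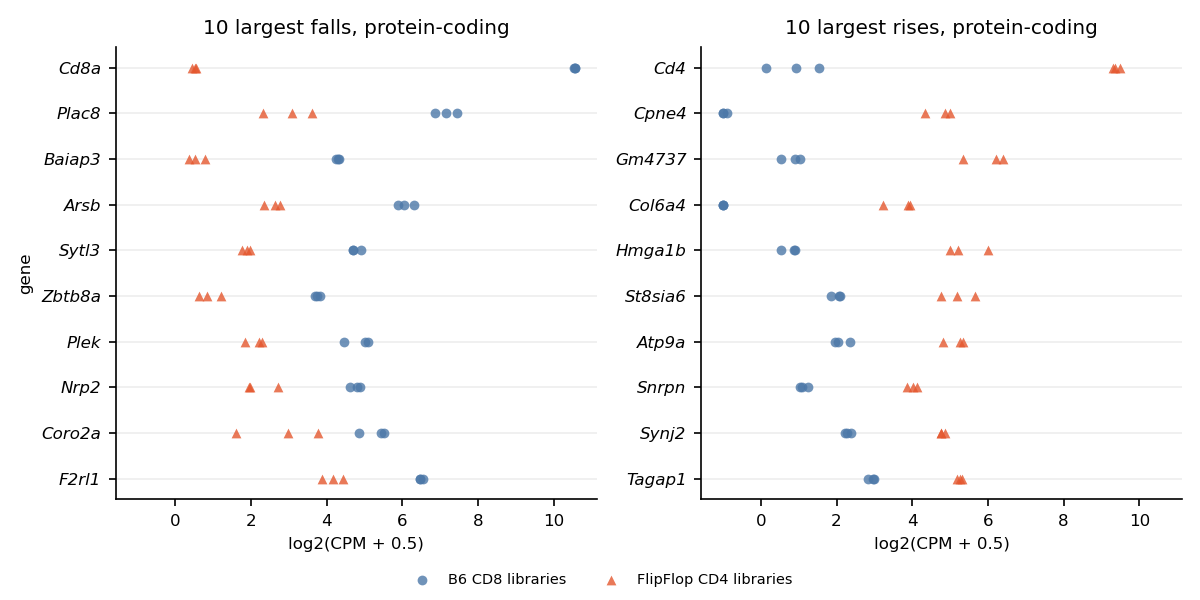
Values of the 20 protein-coding genes with the largest differences, as log2(CPM + 0.5) (horizontal axis), with 1 point per library, circles for B6 CD8 and triangles for FlipFlop CD4. The 3 circles and 3 triangles of each gene do not overlap, and the triangles of Coro2a spread most among the falls, from 2.53 to 13.1 CPM.

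Among processed pseudogenes 24 were called higher and 3 lower of 273, while 135 of all 273 lay above 0 and 138 below, with a median of -0.0015. Of the 24, 14 had no B6 CD8 library at 1 CPM and thus had to be higher, and 2 of the 3 had no FlipFlop CD4 library at 1 CPM, so that the counts are no support for a direction. The 3 that fell, named after their values were seen, were H3f3c, 3000002C10Rik and Gm6344. Those that also averaged at least 5 CPM in one group and did not overlap were 17, of which 9 had no B6 CD8 library at 1 CPM (32.8% of all genes did not overlap). Their sequences are shown against those of the genes they copy, because a read can be told apart only where both differ. By blastn, 255 of the 273 matched a multi-exon protein-coding gene (the parent) over at least 80% of their length, with a median identity of 99.5%, and the 24 that rose had 94.6% to 100% identity. The stretches of 60 bases below are read 5′ to 3′ from GENCODE M21 transcripts (GRCm38), lie in a coding exon of the parent, and were chosen to hold the most differences, which are in capitals. Gm8730 (chr8:102865352-102865411, minus strand; 98.7% identity over 954 aligned bases) is set against Rplp0 (chr5:115561168-115561227, plus strand). Gm9625 (chr13:67810436-67810495, plus strand) is also set against Rplp0 (chr5:115560877-115560936, plus strand). Gm13841 (chr5:115802063-115802122, minus strand) is set against Rpl29 (chr9:106430308-106430367, plus strand), and Gm4737 (chr16:46154508-46154567, minus strand), a 1-exon gene annotated as protein-coding, against Ahcy (chr2:155064867-155064926, minus strand).
Gm8730: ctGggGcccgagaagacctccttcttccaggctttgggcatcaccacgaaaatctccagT
Rplp0: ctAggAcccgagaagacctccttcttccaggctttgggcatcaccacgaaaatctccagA
Gm9625: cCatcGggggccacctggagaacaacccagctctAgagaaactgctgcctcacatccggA
Rplp0: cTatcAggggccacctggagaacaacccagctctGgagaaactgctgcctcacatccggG
Gm13841: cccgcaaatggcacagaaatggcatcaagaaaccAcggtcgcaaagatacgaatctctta
Rpl29: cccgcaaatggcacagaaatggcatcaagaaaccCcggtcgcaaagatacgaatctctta
Gm4737: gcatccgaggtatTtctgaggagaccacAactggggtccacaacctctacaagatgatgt
Ahcy: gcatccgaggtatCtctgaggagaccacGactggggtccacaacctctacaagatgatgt

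Even the most divergent 60 bases held 1 to 4 differences. Gm13841 was at 364, 216 and 385 CPM in FlipFlop CD4 against 0.158, 0.234 and 0.115 CPM in B6 CD8 (8.87 ± 0.70, adjusted p = 6.6e-06), Gm8730 at 1359, 2462 and 1172 CPM in FlipFlop CD4 against 9.75, 8.14 and 9.85 CPM in B6 CD8 (7.34 ± 0.29) and Gm9625 at 309, 483 and 248 CPM in FlipFlop CD4 against 5.01, 4.12 and 4.53 CPM in B6 CD8 (6.05 ± 0.27). Gm9825, a copy of Rnps1, was at 41.2, 39.1 and 35.9 CPM in FlipFlop CD4 against 0.128, 0.0924 and 0.187 CPM in B6 CD8 (5.95 ± 0.11). Gm4864, a copy of Hdac1, was at 17.7, 17.2 and 20.7 CPM in FlipFlop CD4 against 0, 0 and 0.0331 CPM in B6 CD8 (1 read against 1569, a ratio of 1512 with an exact 95% counting interval of 271 to 59769). For all 5, B6 CD8 libraries were under 10 CPM and every FlipFlop CD4 library was well above them.  Values of processed pseudogenes were rarely whole reads: of those under 100 CPM 7.99% were, against 90.6% of values of protein-coding genes, and 215 of the 273 had no whole value in any of the 6 libraries. How reads that match several genes were assigned is not given in the sources used here, and levels of single copies are uncertain.

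The 24 rising pseudogenes had 15 parents, all tested, of which 13 lay below 0 in FlipFlop CD4 T cells and 6 of these were called, against 5524 of the 10922 tested genes below 0 and 3.95% called lower, and 1, Glo1, named after its value was seen, was called higher. Rplp0, a protein of the ribosomal stalk, was at 5763, 3383 and 4661 CPM in FlipFlop CD4 and 8425, 8609.6 and 8624 CPM in B6 CD8, and its call was lost without 3 of the 6 libraries (B6 CD8 replicates 2 and 3 and FlipFlop CD4 replicate 2, adjusted p up to 0.0781). With its 4 matched copies the sums were 7455, 6369 and 6099 CPM and 8441, 8623 and 8639 CPM, so that the ratio of group means changed from -0.89 to -0.37 on the log2 scale. For Rps2 with 8 copies this ratio changed from -0.88 to -0.35, and for Hdac1 with 3 copies from -0.34 to -0.05. Rpl29 was at 60.3, 591 and 54.5 CPM against 1155, 1123 and 1126 CPM, and with its 2 copies (Gm13841 and Gm6344) the sums were 424, 809 and 439.8 CPM against 1158, 1126 and 1129 CPM, a change in the log2 ratio of means from -2.27 to -1.03. Ahcy, which hydrolyses S-adenosylhomocysteine, was at 68, 38.6 and 33.5 CPM against 92.3, 91.4 and 95.6 CPM, and with Gm4737 the sums were 108, 123 and 107 CPM against 93.3, 93 and 96.9 CPM. Summing parent and copies thus brought Rplp0, Rps2, Hdac1 and Rpl29 closer to equal, and turned Ahcy from lower to higher. Of the 15 parents, the 13 that were lower came closer to equal, Eef1a1 only from -0.1846 to -0.1828, whereas Glo1 (1.001 to 1.13) and Gcn1l1 (0.169 to 0.188) moved further from it. All these families were chosen for copies called higher, and adding such copies raises a ratio. The direction of each change was thus set by the choice and is no support for a shift of reads.

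The share of a family's summed value that was placed on the copies is given for 4 families, which were chosen for their called copies. For Rplp0 it was 22.7%, 46.9% and 23.6% in FlipFlop CD4 replicates 1, 2 and 3 and 0.187%, 0.154% and 0.179% in B6 CD8. For Ahcy it was 37%, 68.6% and 68.7% against 1.01%, 1.68% and 1.41%, and for Rpl29 85.8%, 26.9% and 87.6% against 0.289%, 0.21% and 0.27%. Replicate 2 was the high one for Rplp0 and the low one for Rpl29, and replicate 1 the low one for Ahcy. For Rps2 the 3 FlipFlop CD4 shares were alike, at 32.2%, 31.1% and 30%, against 0.99%, 1.17% and 1.22%.

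**Figure D4:**
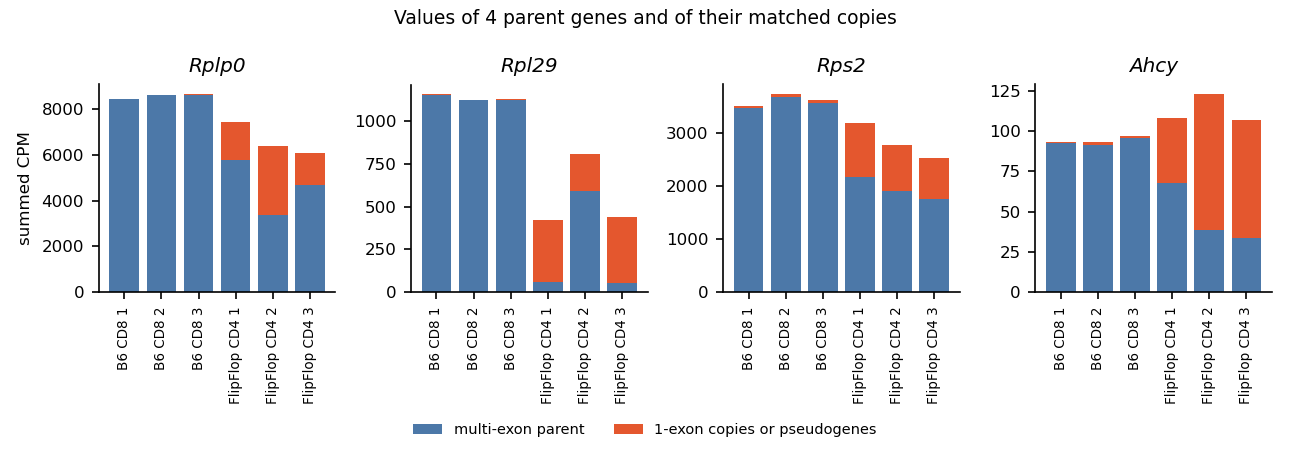
Summed CPM (vertical axes, each from 0) of the multi-exon parents Rplp0, Rpl29, Rps2 and Ahcy (blue) and of their matched 1-exon copies or pseudogenes (orange), in each of the 6 libraries (horizontal axes). Copies take up to 1.68% of a bar in B6 CD8 libraries and 22.7% to 87.6% in FlipFlop CD4 libraries, and no error bars are drawn because each bar is 1 library.

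The helper-lineage pair gave a second FlipFlop to B6 difference in libraries that the first does not use, and 2815 of the 10922 genes (25.8%) were called in it. Of the 900 genes called in the cytotoxic pair, 436 (48.4%) were called in the same direction in the helper pair and 79 (8.78%) in the opposite one. The difference between both pairs was called for 203 of the 900, against 4.32% of all tested genes. The 900 were chosen by the cytotoxic difference, which enters this contrast, so a higher share was favoured. Single libraries moved both counts: 258 genes were called the same way and 132 differed between pairs without B6 CD8 replicate 2, and 286 and 290 were called the same way without B6 CD8 replicate 3 and FlipFlop CD8 replicate 3, respectively. The pairs share no library, but same-numbered FlipFlop CD4 and FlipFlop CD8 libraries deviated together from their group means (correlations over genes of 0.44, 0.30 and 0.55), as B6 CD4 and B6 CD8 libraries did less (0.18, 0.09 and 0.38), and the labels do not say whether they came from the same mice. With the replicate number within each strain as a block, the difference was called for 247, with 201 of the 203 among them. Of the 27 called processed pseudogenes, 25 were called the same way, 0 the opposite way, and the difference between pairs was called for 0 by limma (1 of all 273 tested). The direction of 14 of the 24 rises and 2 of the 3 falls among them was fixed in the cytotoxic pair by the limit on low values, and the class was not tested against other genes. Gm8730 differed by 7.34 in the cytotoxic and 6.92 in the helper pair, Gm9825 by 5.95 and 5.82, and Gm4864 by 5.21 and 5.56. The 796 protein-coding genes gave 387 the same way, 61 the opposite way and 167 with a called difference between pairs (412 of all 10089 tested).

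Among the named protein-coding genes, some differed alike in both pairs and some did not. Snrpn (2.88 and 2.91), Tagap1 (2.32 and 2.53), Zbtb8a (-2.86 and -3.16) and F2rl1 (-2.34 and -2.13) changed the same way and the difference between pairs did not pass. St8sia6 was called higher in the cytotoxic pair and not in the helper pair (3.20 and 0.07, difference 3.13, adjusted p = 0.00012). Of the 9 memory genes called lower, 7 were called higher in the helper pair, with Cxcr6 at -1.70 and 1.65, Il18rap at -2.20 and 1.43, and Ly6c2 at -1.30 and 2.13, and the list as a whole gave 21 rises and 1 fall there, against 11.1% of all genes called higher and 14.7% lower in that pair. Plac8 fell in the cytotoxic pair and was at 0.21 in the helper pair (difference -4.36, adjusted p = 0.00091). Of the 5 TCR reporter genes, the difference between pairs was called for Nr4a1 (0.90 and 0.16) and did not pass for the other 4.

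**Figure D5:**
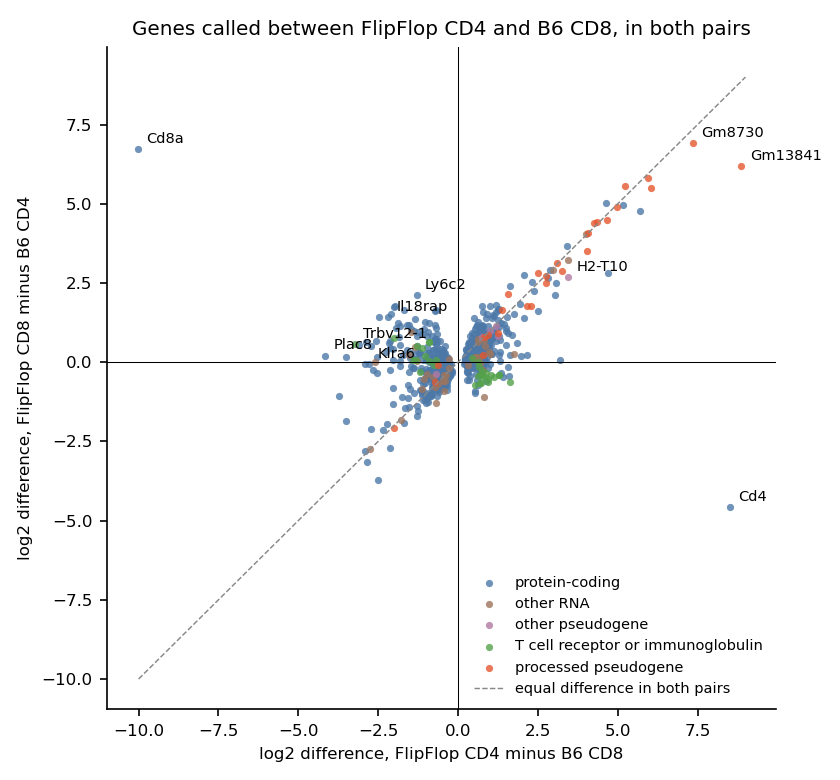
Log2 difference of the 900 called genes between FlipFlop CD4 and B6 CD8 (horizontal axis) and between FlipFlop CD8 and B6 CD4 (vertical axis), coloured by class, with the dashed line where both are equal. Processed pseudogenes lie along the line, 28 of the 32 T cell receptor V segments have opposite signs in the pairs, and Cd8a and Cd4 lie far from the line at the left and the right.

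The share of tested genes called was 15.5% on chromosome 17 and 12.3% on chromosome 6, and 4.46% to 10.4% on the other autosomes and X together. Of 2 genes that the annotation places on the Y chromosome 1 was called: Gm47283, named after its value was seen, was at 4.92, 1.85 and 2.97 CPM in FlipFlop CD4 against 0, 0 and 0 CPM in B6 CD8. The labels give all mice as female, and where these reads came from was not tested. Of 355 bins of 5 Mb with at least 10 tested genes, 12 had over 25% called, against a median of 6.67%. On chromosome 6 the bin from 50 to 55 Mb had 8 of 16 genes called and the bin from 40 to 45 Mb, which holds the Trbv segments, 12 of 31. The bins of the altered coreceptor loci had 2 of 34 called (70 to 75 Mb, with Cd8a) and 6 of 37 (120 to 125 Mb, with Cd4). On chromosome 17 the bins from 5 to 10 Mb (13 of 28, with Sytl3 the largest), 20 to 25 Mb (25 of 69) and 35 to 40 Mb (15 of 56, with H2-T10 the largest) stood out, and 9, 21 and 11 of these were called the same way in the helper pair. The bin of the Klra genes, 130 to 135 Mb on chromosome 6, had 4 of 15 called, and 0 of the 4 were called the same way in the helper pair. These shares are a description with no test, since neighbouring genes are not independent.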

How the data were processed

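Total RNA of sorted LN T cells was purified with RNeasy columns, made into libraries with the SMARTer Universal Low Input kit and sequenced as paired ends. The deposited values are a signal that the authors made from gene counts: CPM divided by TMM factors, filtered on low values. The study's methods name STAR and mm10, the submitters' processing notes name Trimmomatic, TopHat and mm10, and the counting program is not given in the sources used here. The methods give an age range and sexes for all mice that differ from the labels, and the labels were used. All 12809 identifiers matched GENCODE M21 (GRCm38), from which gene classes, coordinates and sequences were taken. Values were whole reads for fewer than 95% of entries, so no count test was run, and intervals and floors from reads cover counting error only. No column of other samples was used or found (0).

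Genes that reached 1 CPM in 3 or more of the 6 compared libraries entered the test on log2(CPM + 0.5) with limma 3.58.1 (lmFit, eBayes with trend; R 4.3.3), with 12 libraries, 1 mean per group, 8 residual degrees of freedom, two-sided tests and Benjamini-Hochberg adjustment over all tested genes. "Called" means an adjusted p under 0.05, "within 2-fold" that the 95% interval lies between -1 and 1, and ± a standard error. Log2 differences understate the change of low genes because of the pseudocount. The floor is 3 reads per library. The fit was tested on simulated data. Parents of pseudogenes were found with blastn 2.17.0.

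Named genes are members of the lists in the text, the 6 RT–qPCR genes, the 10 largest rises and falls among called protein-coding genes (mean of at least 10 CPM in the higher group, no overlap) and the 5 largest rises and falls among processed pseudogenes (at least 5 CPM). Members and lists were chosen with earlier results of these data known. Values of some list members are not reported here.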

Additional observations from a re-analysis of the deposited data

Results flagged for a closer look

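The FlipFlop to B6 difference was compared between the cytotoxic pair (FlipFlop CD4 minus B6 CD8) and the helper pair (FlipFlop CD8 minus B6 CD4) by limma with Benjamini-Hochberg adjustment. Values in parentheses are the cytotoxic difference minus the helper difference, on the log2 scale, and each passed at an adjusted p under 0.05. The difference between pairs was called for 203 of the 900 genes called in the cytotoxic pair, against 4.32% of all tested genes. The coreceptor genes were furthest apart, with Cd8a (-16.77) and Cd4 (13.10). Negative values, where FlipFlop cells were lower in the cytotoxic pair relative to the helper pair, were found for the memory and lineage genes Plac8 (-4.36), Ccr2 (-3.75), Il18rap (-3.62), Ly6c2 (-3.43), Cxcr6 (-3.35), Tbx21 (-2.78), Anxa2 (-2.01), Il2rb (-1.78) and Hopx (-1.55). They were also found for the killer cell lectin-like receptors Klrc1 (-3.50), Klrk1 (-3.11), Klra6 (-2.74), Klre1 (-2.70), Klra3 (-2.57) and Klra7 (-2.39), of which all but Klrk1 passed the limit on low values with no FlipFlop CD4 library at 1 CPM, so that a negative value was favoured and their number is no support. Further negative values were found for Coro2a (-3.93), Plek (-3.23), Sytl3 (-2.83), Baiap3 (-2.68), Nrp2 (-2.22), Xcl1 (-1.91), Arsb (-1.63), Il10ra (-0.80) and Icos (-0.50). Positive values were found for Pecam1 (0.48), Nr4a1 (0.74), H2-T10 (0.75), Lef1 (0.85), Synj2 (0.87), Atp9a (0.89), Col6a4 (1.86), Cd40lg (1.87) and St8sia6 (3.13).

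Arsb, Baiap3, Icos, Synj2, Atp9a, Col6a4 and H2-T10 were called the same way in both pairs and differed in size. Cxcr6, Ccr2, Il2rb, Il18rap, Ly6c2, Anxa2, Tbx21, Hopx, Xcl1, Klrk1, Coro2a and Lef1 were called in opposite directions. Groups of 3 libraries were not searched for single outlying libraries.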

How the results depend on the processing

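Direction and call of the genes named in the text were recomputed under each alternative. Of 113 named results, 80 kept both under every alternative tried. Among the changes, Cd8b1, which was not called, was at -0.05 as reported, at 0.011 without the TMM factor and at -0.10 to 0.030 with 1 library left out (highest without FlipFlop CD4 replicate 3). Eomes, also not called, was at -0.44 to 0.11 with 1 library left out (highest without FlipFlop CD4 replicate 1). The count of called genes (900) was 886 and 901 with pseudocounts of 0.1 and 1, 953 with all genes of the table, 641 with genes averaging at least 5 CPM, 898 with median-of-ratios scaling, 871 without the TMM factor and 1037 with fits of 6 libraries, 779 of which are among the 900. It was 425 at an adjusted p under 0.01 and 212 with at least 2-fold added. Without the TMM factor the share of higher calls was 61.4% in place of 52.1% and the median difference of all genes 0.05. With genes averaging at least 5 CPM, 33 genes differed more than 5-fold, 15 processed pseudogenes were called and 111 differences were not shared by the helper pair, since fewer genes were tested (9068).

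With 1 of the 12 libraries left out, the count of called genes ran from 499 to 1545 and that of protein-coding genes from 418 to 1424. Genes called the same way in the helper pair numbered 258 to 535, those with a called difference between pairs 132 to 232, and processed pseudogenes 23 to 27. Genes more than 5-fold apart numbered 50 to 56, and those within 2-fold 9951 to 10218. The 6 libraries of the helper pair were added as alternatives after seeing the data. Without B6 CD4 replicate 1 all 900 calls were kept, and the cause of the rise was not tested.

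The replicate numbers do not pair the compared libraries, since deviations of same-numbered FlipFlop CD4 and B6 CD8 libraries from their group means correlated at -0.10, -0.02 and 0.10. With the replicate number as a block, 1120 genes were called, 878 of them among the 900, and with it 583 genes were called the same way in the helper pair (436 as reported) and 265 had a called difference between pairs (203). The numbers within each strain, added as a block after seeing the data, gave 247 such differences and kept the call for all 35 named genes given above as differing between pairs. Low values limit the precision: the floor of 3 reads was 0.098 to 0.120 CPM per library and covers counting error only.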

Other observations

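Shares of summed value on copies were also read in the FlipFlop CD8 and B6 CD4 libraries. For Ahcy the share on Gm4737 was 39.7%, 65.8% and 69.4% in FlipFlop CD8 replicates 1, 2 and 3, beside 37%, 68.6% and 68.7% in the FlipFlop CD4 replicates of the same numbers, and 1.55%, 2.16% and 1.62% in B6 CD4. For Rplp0 it was 22.8%, 48.5% and 23.7% beside 22.7%, 46.9% and 23.6%, and for Rps2 32.1%, 30.8% and 30.8% beside 32.2%, 31.1% and 30%. For Rpl29 it was 28.2%, 6.86% and 86.6% beside 85.8%, 26.9% and 87.6%, and replicate 1 lay lower in CD8 than in CD4 T cells. The order of the 3 FlipFlop replicates was the same in CD4 and CD8 T cells for all 4 families. B2m was at 3290.2, 1421 and 1345 CPM in FlipFlop CD8 beside 3873, 1618 and 1685 CPM in FlipFlop CD4 replicates 1, 2 and 3, and replicate 1 was the highest in both.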
